A study of Mus musculus with 3 samples.

Results

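Complement is a cascade of plasma and cell-surface proteins in which C3 is cut into an opsonin and a small inflammatory peptide. The alternative pathway amplifies that cut through factor B and properdin, the C3a and C5a receptors pass the peptide signals to leukocytes, and inhibitors on the surface of host cells stop the enzymes from building up there. In the spleen, myeloid cells make several of the factors, while B cells carry receptors for C3 fragments, and the classical pathway component C1q has long been linked to lupus.

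The genes described here are the complement factors C3, Cfb and Cfp, the anaphylatoxin receptors C3ar1 and C5ar1 and the inhibitors Serping1, Cd55 and Cr1l, which are 8 of the 32285 genes in the count matrices. They were taken by gene name, whatever their values, and each name matched a single row. All 8 are protein-coding and lie on the minus strand of GRCm38, with C3 at chr17:57203970-57228136, Cfb at chr17:34856374-34862518, Cfp at chrX:20925454-20931555, C3ar1 at chr6:122847138-122856161, C5ar1 at chr7:16246743-16259540, Serping1 at chr2:84765387-84775444, Cd55 at chr1:130439027-130462744 and Cr1l at chr1:195097382-195131586. Values are whole genes, exons and introns not being separated in the files.

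Splenocytes depleted of T cells with CD3 microbeads were sequenced as 3 single-cell 5′ libraries from mice 12 to 14 weeks old. The control library held male C57Bl/6 mice that carried sham minipumps from 10 weeks of age for 2 weeks, together with female C57Bl/6 mice. In the Ang II library were male C57Bl/6 mice infused with angiotensin II for the same 2 weeks, at a dose labelled as 490 ug/kg/min. They were kept with or without 2-hydroxybenzylamine (2HOBA), a scavenger of reactive lipid aldehydes. The third library came from female B6.SLE123 mice, a congenic lupus-prone strain on the C57Bl/6 background, kept with or without 2HOBA for 6 weeks from 7 weeks of age. Each condition pooled 3 mice, each library mixed 2 conditions, and within a library 6 hashtag antibodies, C0301 to C0306, marked cell populations that the labels do not tie to a condition. The libraries are therefore 1 sample per group: no test of the groups was possible, the pairs of values in parentheses are exact 95% intervals that cover counting error only, and 2HOBA was not compared. Both comparisons below share the control library.

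After filtering, 14023 to 16708 barcodes per library were kept, with a median of 1759 transcripts (unique molecular identifiers, UMIs) per barcode in the control, 2724 in the Ang II and 1888 in the B6.SLE123 library, and 415 to 496 barcode sequences were shared between pairs of libraries. A barcode was put in a cell class by its count of detected markers out of 8, and 93.3% to 95.9% of kept barcodes were gated. The median number of own markers was 4 to 6 in every class against at most 3 for any other class. B cells, NK cells, neutrophils, Ly6c2 monocytes and nonclassical monocytes had at least 50 cells in every library. Red pulp macrophages, 3 dendritic cell classes, plasmacytoid dendritic cells (pDC) and basophils had at least 20, a limit lowered after the data were seen. The labelled T-cell depletion left 16 T cells in the control and 18 in the B6.SLE123 library, but 295 in the Ang II library, 281 of them under hashtag C0303. In the B6.SLE123 library hashtag C0303 stood apart, with 251 of the 631 neutrophils, 209 of the 462 nonclassical monocytes and 161 of the 200 cells of a C1q-positive monocyte-derived class (C1q moDC), so B6.SLE123 ratios are also given without it for the main results. Xist, a transcript of the inactive X chromosome looked at after the data were seen, was at 0.882 to 2.38 counts per 1000000 UMIs (CPM) in 3 control populations and at 487.1 to 513.0 CPM in the other 3. It was at 0 in all 6 Ang II populations and at 323.5 to 469.1 CPM in the B6.SLE123 populations. Strain, treatment, sex and library cannot be told apart in the B6.SLE123 comparison, nor can treatment, sex and library in the Ang II comparison. The control library held both sexes and each other library 1. The labels do not give the sex of a hashtag, but Xist was low in control hashtags C0301 to C0303 and high in C0304 to C0306. No comparison within a sex was made.

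Over all kept cells, 7 of the 8 genes had the 50 UMIs over both libraries needed to be compared between B6.SLE123 and control. Cfb was at least 2-fold higher in B6.SLE123 and C3ar1 at least 2-fold lower. With 21 UMIs in the control and 155 in B6.SLE123, Cfb met the minimum through the library where it was high. Of all 12484 genes compared in the same way, 6.46% were at least 2-fold higher and 2.21% lower. The median log2 ratio of the 7 genes was 0.30, against -0.078 over all genes. In the Ang II library 6 of the 8 genes could be compared with control and none reached 2-fold in either direction, against 3.10% of 12495 genes, and their median log2 ratio was 0.12 against 0.026 over all genes. A value over all cells combines the share of each class with the level inside it, and the classes are therefore taken one by one below.

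**Figure D1:**
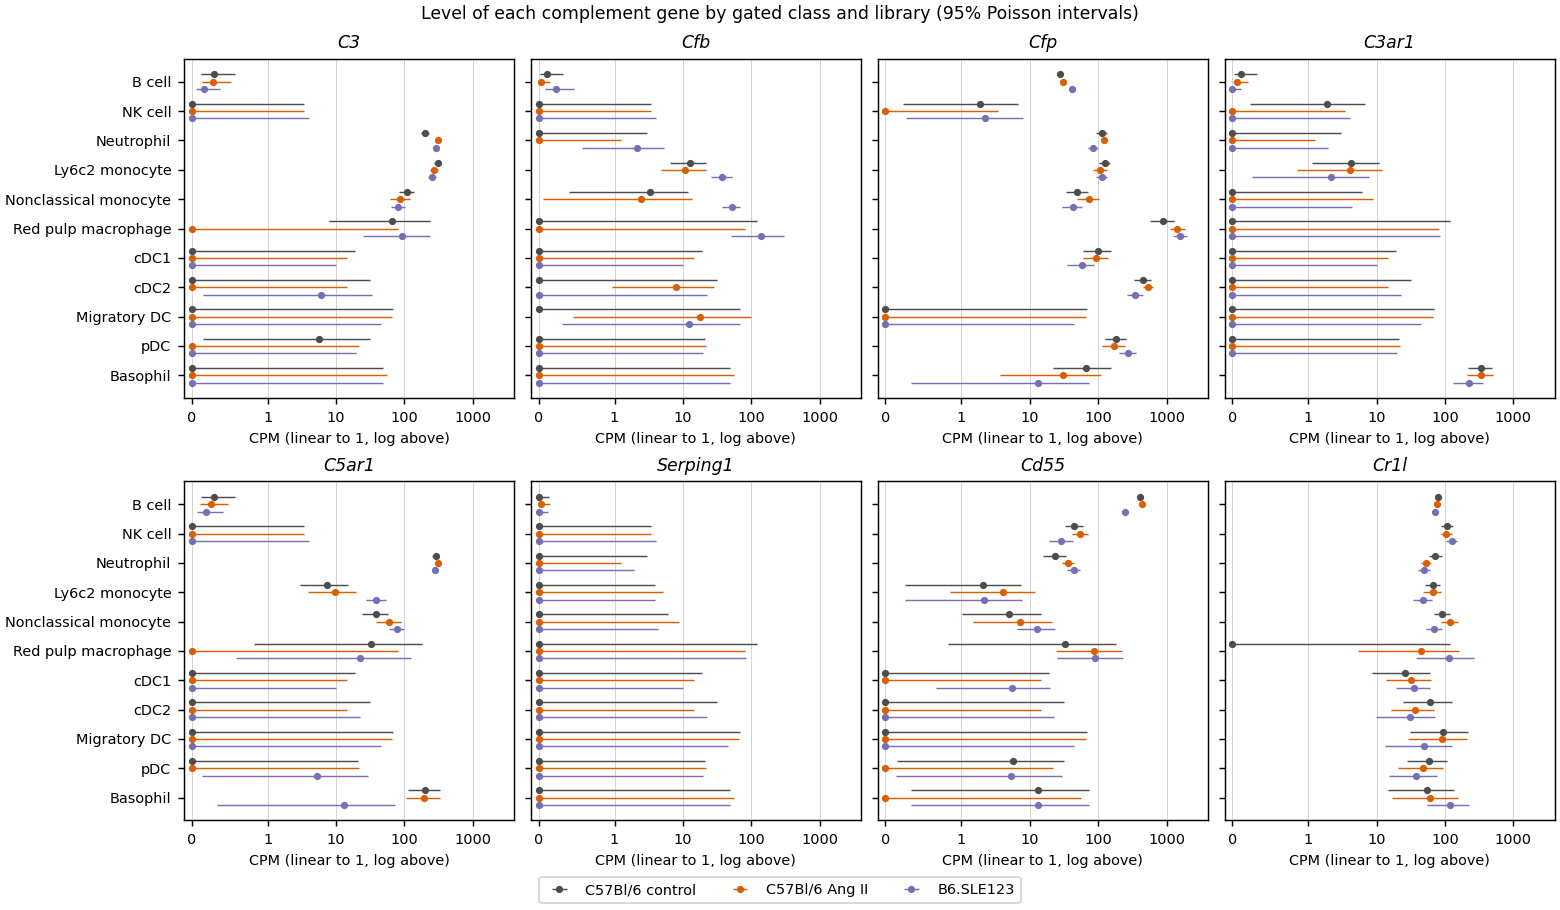
Level of each of the 8 genes (x axis, CPM, linear up to 1 and logarithmic above) in 11 gated classes (y axis) of each library, with exact 95% Poisson intervals. C3 was highest in Ly6c2 monocytes and neutrophils, C5ar1 in neutrophils with basophils next in the control and Ang II libraries, Cfp in red pulp macrophages, C3ar1 in basophils and Cd55 in B cells, while Cr1l was read in all 5 main classes and Serping1 was near 0.

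C3, the central component of the cascade, was transcribed by myeloid cells. In Ly6c2 monocytes it was at 307.5 CPM (273.3, 344.7) in the control, 270.5 (234.1, 310.9) in the Ang II and 257.1 (225.5, 291.8) in the B6.SLE123 library. Neutrophils held 201.7 CPM (177.3, 228.4), 305.9 (286.2, 326.6) and 289.4 (265.7, 314.6) in the same order. Nonclassical monocytes followed with 108.7, 86.8 and 80.9 CPM. The 3 classes were separated by their intervals in the control library, whereas those of Ly6c2 monocytes and neutrophils overlapped in the other two. B cells showed 0.160 to 0.290 CPM and NK cells no UMI in any library, where a limit of 3 UMIs stands at 2.79 to 3.34 CPM. Of the 672 C3 UMIs of the control library 43.8% came from Ly6c2 monocytes and 36.9% from neutrophils, while neutrophils gave 73.3% of the 1223 UMIs of the Ang II library and 52.2% of the 1056 of B6.SLE123.

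Neutrophil C3 was higher than control in both other libraries. The log2 ratio was 0.52 (0.30, 0.74) for B6.SLE123 and 0.60 (0.40, 0.81) for Ang II, or 1.43-fold and 1.52-fold, and it was 0.56 for B6.SLE123 without hashtag C0303. Across the 6 hashtag populations neutrophil C3 ran from 38.3 through a median of 158.8 to 271.1 CPM in the control. The Ang II populations ran from 176.8 through 293.9 to 410.9 and the B6.SLE123 populations from 214.7 through 295.7 to 401.9. The ranges overlapped in both comparisons, and some populations held as few as 21 neutrophils. Leaving out control hashtag C0302 gave the highest ratios, 0.83 for B6.SLE123 and 0.91 for Ang II. Some genes of neutrophil maturation differed in the same class, and others were closer to control. All but Ltf are markers of the neutrophil gate. The granule gene Ngp, made early in maturation, was at 26648.7 CPM in the control, 44565.3 in the Ang II and 43531.6 in the B6.SLE123 library, while Cxcr2, a chemokine receptor of mature neutrophils, was at 838.4, 492.2 and 428.0. Camp was at 31251.2, 35588.4 and 45130.7 and Ltf, chosen after its values were seen, at 6046.0, 11044.9 and 8839.8. Retnlg, at 9480.8, 7107.4 and 9163.3, and Mmp8, at 579.0, 737.0 and 596.0, were close to control in B6.SLE123. In Leiden clusters most control neutrophils were in cluster 7, with 547 cells there and 121 in cluster 12. The split was more even in Ang II, with 437 and 282, and in B6.SLE123, with 369 and 390. The part of neutrophil maturity in the C3 ratio was not tested.

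In the monocytes C3 was not higher. For Ly6c2 monocytes the log2 ratio was -0.26 (-0.51, -0.007) in B6.SLE123 and -0.18 (-0.45, 0.080) in Ang II, and for nonclassical monocytes it was -0.43 (-0.93, 0.083) and -0.32 (-0.95, 0.28). Without hashtag C0303 the B6.SLE123 ratios were -0.33 in Ly6c2 and -0.32 in nonclassical monocytes. Over all cells C3 was at 19.9, 26.9 and 24.5 CPM in control, Ang II and B6.SLE123. The B6.SLE123 ratio over all cells, 0.30 (0.16, 0.44), rested on hashtag C0303, which held 540 of the 1056 UMIs, and was -0.35 without it. For Ang II the ratio over all cells was 0.44 (0.30, 0.57). With the gene limits of the cell filter read as limits on UMIs, it was -0.047, and the B6.SLE123 ratio in Ly6c2 monocytes was 0.020.

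The 300 bases around the annotated C3 start are printed because C3 and C5ar1 share their neutrophil expression, and the start of Cd55 is given further on for contrast. These sequences are RefSeq promoters of GRCm38.p6, which run 5′ to 3′ on the minus strand from 250 bases before the start and were found for 6 of the 8 genes. Cfb and Serping1 were not matched. Capitals mark matches on either strand to the letters searched, and positions are distances from the start base. The C3 window, chr17:57228087-57228386, holds the C/EBP letters TTGCNNAA from -45 to -38, letters that occur in 10.8% of all 32851 promoters of this length.

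C3: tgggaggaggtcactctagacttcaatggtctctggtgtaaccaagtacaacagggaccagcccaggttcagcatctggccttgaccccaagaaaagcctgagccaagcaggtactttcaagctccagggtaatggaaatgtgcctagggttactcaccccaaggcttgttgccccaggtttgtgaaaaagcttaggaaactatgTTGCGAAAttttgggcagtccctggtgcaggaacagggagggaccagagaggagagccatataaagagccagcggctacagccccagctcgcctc

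The PU.1 core GAGGAAG, present in 13.6% of promoters, the interferon-stimulated response element, in 3.44%, and the gamma-activated site letters TTCNNNGAA, in 8.30%, had no match in the 6 windows. The AP-1 letters TGANTCA, in 7.81% of promoters, matched C3ar1 alone.

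Cfb encodes factor B, whose fragment is the protease of the alternative pathway. It was sparse in the control and Ang II libraries, where Ly6c2 monocytes held it at 12.6 and 10.9 CPM, and higher in B6.SLE123 monocytes. Over all cells it had 21 UMIs or 0.621 CPM in the control, 19 or 0.418 CPM in Ang II and 155 or 3.59 CPM in B6.SLE123, a log2 ratio of 2.53 (1.87, 3.26) for B6.SLE123 and of -0.57 (-1.55, 0.39) for Ang II. The control populations ran from 0 through 0.254 to 1.78 CPM, those of Ang II from 0 through 0.243 to 1.18 and those of B6.SLE123 from 0.460 through 2.60 to 8.67. The highest of these was hashtag C0303 with 87 of the 155 UMIs. Without it the log2 ratio was 1.73, without control hashtag C0305 it was 3.43, and 4 of the 6 B6.SLE123 populations were above the highest control population.

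Nonclassical monocytes, which patrol the vessel wall, had 2 Cfb UMIs in the control, 1 in the Ang II and 44 in the B6.SLE123 library, or 3.29, 2.41 and 51.6 CPM. The log2 ratio for B6.SLE123 was 3.97 (2.03, 7.06). Hashtag C0303 supplied 37 of the 44 UMIs, at 88.8 CPM against 0 to 20.3 in the other 5 populations, and the ratio without it was 2.29 with an interval that included 0 (-0.11, 5.59). Different Leiden clusters held most of this class: clusters 17 and 26 had 194 and 118 B6.SLE123 cells but 9 and 8 control cells, whereas clusters 16 and 21 had 115 and 88 control cells, 63 and 22 Ang II cells and 54 and 39 B6.SLE123 cells. The part of this split in the ratio was not tested. In Ly6c2 monocytes the counts were 12, 8 and 35 UMIs, or 12.6, 10.9 and 37.6 CPM, with a log2 ratio of 1.58 (0.60, 2.67) for B6.SLE123, and here hashtag C0303 was not the highest population. Without it the ratio was 1.67 (0.58, 2.83). With the gene limits of the cell filter read as limits on UMIs, the Ly6c2 monocyte ratio was 0.65, below 2-fold. The C1q moDC class, gated on C1q genes among others, gave 36 Cfb UMIs or 78.7 CPM in B6.SLE123, a value that rested on single populations. Hashtag C0304 had 18 UMIs in 15 cells, or 560.7 CPM, and hashtag C0303 14 UMIs in 161 cells, or 36.2 CPM, and the class was at 42.3 CPM without the former and 311.7 without the latter. It had 200 cells there, against 4 among control and 10 among Ang II cells, so no ratio is given. Red pulp macrophages had 6 Cfb UMIs in B6.SLE123, all of hashtag C0303, and none in the other libraries, B cells 1 to 7 and NK cells none. Cfb overlaps the annotated gene Gm20547, which was not analysed here, and how reads over both were assigned was not tested.

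**Figure D2:**
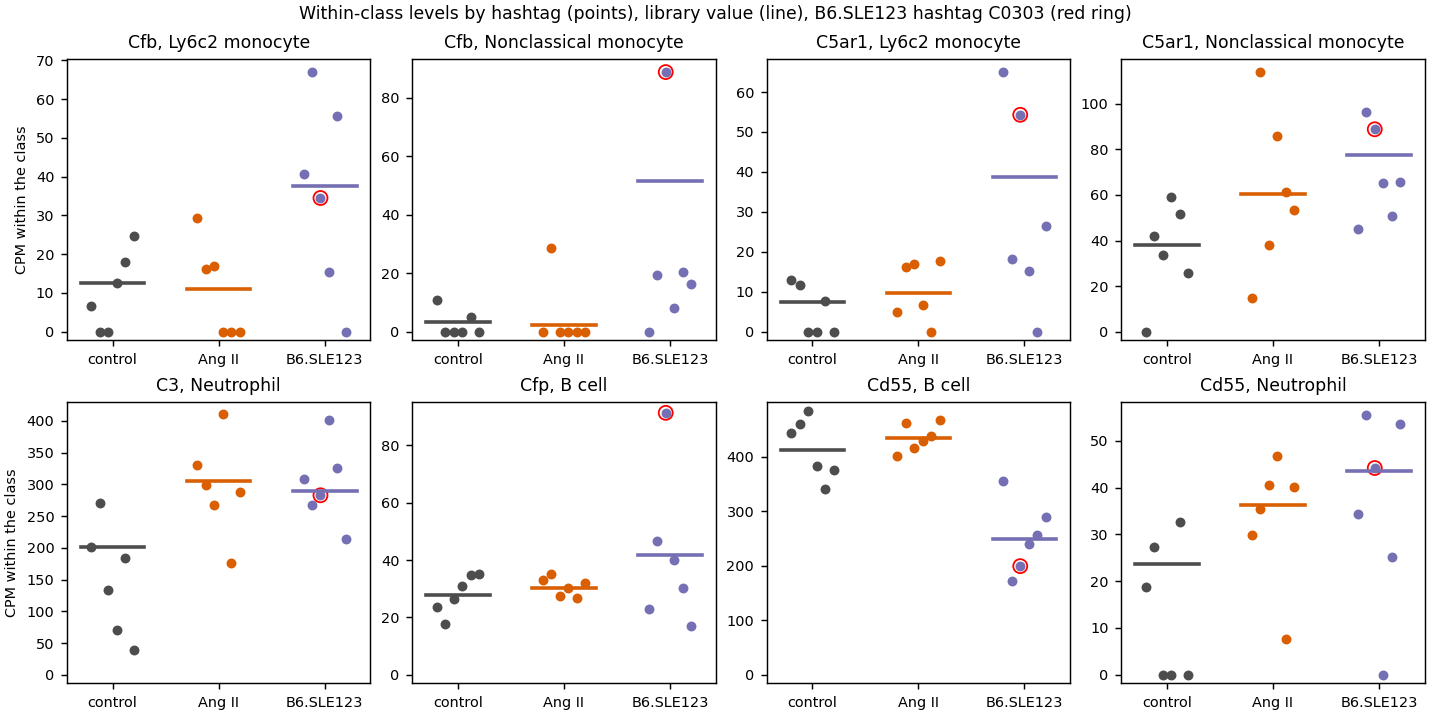
CPM within a class (y axis) for the 6 hashtag populations of each library (points, C0301 to C0306 from left to right) and for the whole library (line), with B6.SLE123 hashtag C0303 ringed. Cfb in nonclassical monocytes and Cfp in B cells were highest in that population, at 88.8 and 91.4 CPM, whereas Cd55 of B6.SLE123 B cells was below the control range in every population but C0301.

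Cfp encodes properdin, which stabilises the alternative pathway convertase, and lies on the X chromosome. Red pulp macrophages, the cells that clear old erythrocytes, held the highest level among classes with 20 cells in each library, 877.8 CPM in the control (27 UMIs), 1446.7 in Ang II (66 UMIs) and 1575.8 in B6.SLE123 (69 UMIs). The log2 ratios were 0.72 (0.055, 1.42) for Ang II and 0.84 (0.18, 1.54) for B6.SLE123, from 23 control, 36 Ang II and 42 B6.SLE123 cells. Control hashtag C0305 held 17 of the 27 control UMIs, and without it the ratios were 1.39 for Ang II and 1.51 for B6.SLE123. Without control hashtag C0304 they were 0.30 and 0.42, and the Ang II ratio was 0.36 without Ang II hashtag C0303. With Leiden clusters in place of gates the B6.SLE123 ratio was 0.15. Type 2 conventional dendritic cells (cDC2) came next with 449.7, 533.9 and 346.8 CPM and pDC after them with 183.5, 172.7 and 269.8, the intervals of these 2 classes overlapping in B6.SLE123. Ly6c2 monocytes, at 124.5, 106.6 and 112.9 CPM, and neutrophils, at 112.2, 121.5 and 84.0, had overlapping intervals in each library. Neutrophil Cfp was lower in B6.SLE123, with a log2 ratio of -0.42 (-0.76, -0.078), but the ratio was -0.050 (-0.44, 0.34) without hashtag C0303. NK cells had 2, 0 and 2 UMIs, or at most 2.22 CPM, which marks the level that free RNA could give.

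B cells transcribed Cfp above that level, at 27.8 CPM in the control, 30.4 in Ang II and 41.9 in B6.SLE123, and by their number gave 55.2% to 59.8% of all Cfp UMIs. The control B cell populations ran from 17.8 through 28.7 to 35.1 CPM, those of Ang II from 26.8 through 31.1 to 35.3 and those of B6.SLE123 from 17.0 through 35.1 to 91.4. The log2 ratio for B6.SLE123 was 0.59 (0.46, 0.72). Hashtag C0303 was the population at 91.4 CPM and the others spanned 17.0 to 46.6, so that without it the ratio was 0.19 (0.044, 0.33). For Ang II the B cell ratio was 0.13 (-0.007, 0.26). Over all cells Cfp was at 37.9 CPM in the control, 43.4 in Ang II and 50.6 in B6.SLE123, and the B6.SLE123 ratio of 0.42 (0.32, 0.52) was 0.068 without hashtag C0303. The Ang II ratio of 0.19 (0.093, 0.30) was -0.082 with the limits read as UMIs.

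The receptor for C3a, C3ar1, was a basophil transcript in these spleens. Basophils, rare granulocytes that release histamine, held 25 UMIs in 38 control cells, 22 in 20 Ang II cells and 17 in 28 B6.SLE123 cells, or 334.2 CPM (216.3, 493.4), 332.6 (208.4, 503.6) and 223.4 (130.1, 357.7). That was 69.4%, 71.0% and 85.0% of all C3ar1 UMIs. Ly6c2 monocytes had 2 to 4 UMIs and neutrophils and nonclassical monocytes none. Within basophils the log2 ratio was -0.58 (-1.56, 0.37) for B6.SLE123 and -0.007 (-0.90, 0.88) for Ang II. Over all cells C3ar1 had 36, 31 and 20 UMIs, with a B6.SLE123 log2 ratio of -1.20 (-2.07, -0.37), beside 38 basophils among 15700 kept control cells and 28 among 16708 in B6.SLE123. The part of the basophil share in the ratio was not tested. The 2-fold difference in C3ar1 was narrow: the ratio was -0.96 without B6.SLE123 hashtag C0306, -0.99 without control hashtag C0303, -0.95 with barcodes of several hashtags kept and -0.75 with the gene limits read as UMIs.

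C5ar1, the receptor for C5a, was a neutrophil transcript, with 353 UMIs or 287.1 CPM in the control, 915 or 312.3 in the Ang II and 528 or 277.3 in the B6.SLE123 library. These levels were close: the log2 ratio was -0.050 (-0.25, 0.15) for B6.SLE123 and 0.12 (-0.057, 0.30) for Ang II. Neutrophil populations ran from 200.4 through 363.6 to 515.1 CPM in the control, from 240.5 through 310.6 to 363.4 in Ang II and from 257.2 through 282.2 to 502.4 in B6.SLE123. Over all cells the receptor was nevertheless higher in Ang II, at 22.7 against 13.3 CPM with a log2 ratio of 0.77 (0.61, 0.93), and in B6.SLE123, at 17.4 CPM with a ratio of 0.38 (0.21, 0.56) that became -0.24 without hashtag C0303. Neutrophils gave 78.3%, 88.6% and 70.3% of the UMIs in control, Ang II and B6.SLE123.

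In monocytes C5ar1 was higher in B6.SLE123. Nonclassical monocytes had 23, 25 and 66 UMIs, or 37.9 CPM in the control, 60.3 in Ang II and 77.4 in B6.SLE123. The B6.SLE123 log2 ratio was 1.03 (0.33, 1.78). C5ar1 was the one gene of the 4 comparable in this class that was 2-fold higher, against 2.60% of 3999 genes. With 23 UMIs in the control and 66 in B6.SLE123, C5ar1 met the minimum of UMIs through the library where it was high. No excess over the 2.60% is therefore drawn from it. The populations ran from 0 through 37.8 to 59.2 CPM in the control and from 45.0 through 65.5 to 96.5 in B6.SLE123, and without hashtag C0303 the ratio was 0.81 (-0.027, 1.67). It also fell below 2-fold without B6.SLE123 hashtag C0302 (0.98), control hashtag C0301 (0.80) or control hashtag C0306 (0.97), with a gate of 4 markers (0.88) and with Leiden classes (0.85). Clusters 17 and 26, which held most nonclassical monocytes of B6.SLE123, had few control cells, as given for Cfb, and the part of that split was not tested. In Ly6c2 monocytes the counts were 7, 7 and 36 UMIs, or 7.32, 9.56 and 38.7 CPM, with a B6.SLE123 log2 ratio of 2.40 (1.21, 3.82) and of 1.87 (0.46, 3.42) without hashtag C0303. That ratio was 0.38, below 2-fold, with the gene limits of the cell filter read as limits on UMIs. B cells, at 0.192 to 0.290 CPM, and NK cells, with no UMI, mark the level that free RNA could give. Basophils had 15 UMIs in the control, 13 in Ang II and 1 in B6.SLE123, a log2 ratio of -3.93 (-9.33, -1.23) from 38 and 28 cells.

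The C5ar1 start window, chr7:16259289-16259588, had no match to the C/EBP letters found at C3. It holds the E box letters CAGCTG, which read the same on both strands and are in 16.3% of promoters, from -134 to -129. The start used for this window lies inside the C5ar1 span given above, which reaches 16259540, and so is not the 5′ end of that span.

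C5ar1: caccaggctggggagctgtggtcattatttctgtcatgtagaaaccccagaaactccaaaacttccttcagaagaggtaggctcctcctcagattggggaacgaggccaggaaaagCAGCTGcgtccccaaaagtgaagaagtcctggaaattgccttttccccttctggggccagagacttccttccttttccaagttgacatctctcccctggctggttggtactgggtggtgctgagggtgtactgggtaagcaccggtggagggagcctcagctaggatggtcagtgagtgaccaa

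**Figure D3:**
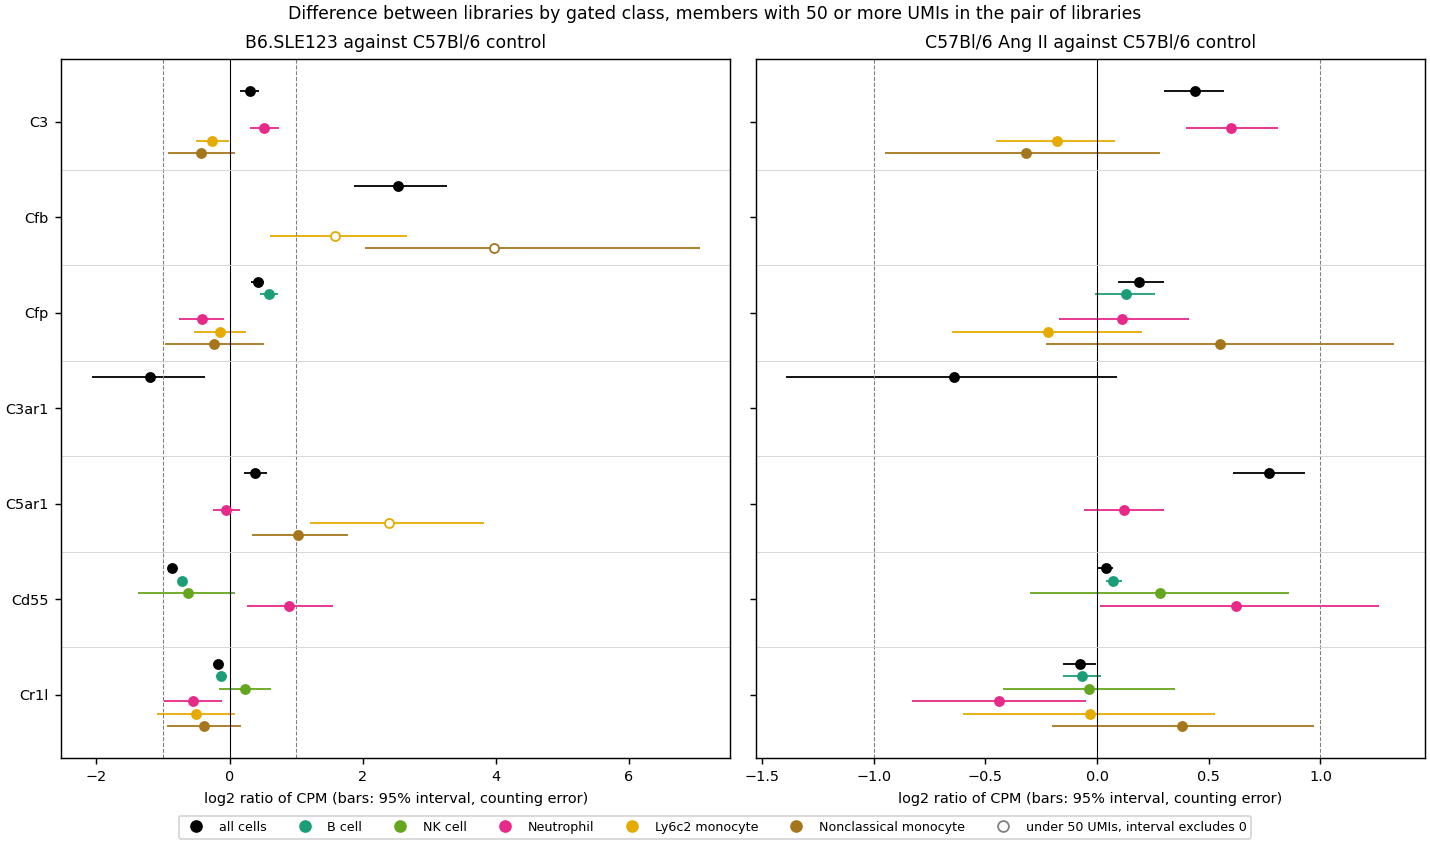
Log2 ratio of CPM (x axis) of B6.SLE123 (left) and Ang II (right) against the control library for 7 genes, over all cells and in 5 classes, with exact 95% intervals and dashed lines at 2-fold. Only values resting on 50 UMIs are drawn, save open points for those with fewer whose interval excludes 0, and Cfb in nonclassical monocytes, at 3.97, was the furthest from 0.

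The inhibitors differed in where they were found. Serping1, the soluble C1 inhibitor made mainly by the liver, had 0, 1 and 1 UMIs in control, Ang II and B6.SLE123, so no ratio is given. Cd55, or decay-accelerating factor, which takes apart the C3 convertases on a cell's own surface, was a B cell transcript with 94.4% to 96.9% of its UMIs in that class. Cr1l, known as Crry, the membrane inhibitor of C3 activation particular to rodents, was read in every main class.

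Cd55 in B cells was at 412.1 CPM in the control, 433.5 in the Ang II and 249.3 in the B6.SLE123 library, a log2 ratio of -0.72 (-0.77, -0.68) for B6.SLE123 and of 0.073 (0.038, 0.11) for Ang II. The control B cell populations ran from 341.0 through 413.1 to 484.3 CPM, those of Ang II from 401.2 through 433.2 to 466.5 and those of B6.SLE123 from 171.8 through 247.8 to 356.1. All but the highest B6.SLE123 population, C0301, were below the lowest control population, and that one alone made the ranges overlap. Without hashtag C0303 the ratio was -0.67 (-0.71, -0.62). Leiden cluster 2 held 8130 B6.SLE123 B cells but 121 control and 33 Ang II cells, whereas clusters 0 and 1 held 3239 and 6241 control, 6150 and 2601 Ang II and 243 and 421 B6.SLE123 cells, and the part of this split in the Cd55 ratio was not tested. Over all cells Cd55 was at 346.7, 355.9 and 190.9 CPM, with ratios of -0.86 (-0.90, -0.82) for B6.SLE123 and 0.038 (0.004, 0.072) for Ang II, the latter at -0.007 without Ang II hashtag C0306 and at -0.046 without control hashtag C0305.

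Subsets of B cells, chosen after the Cd55 ratio was seen, did not all share the difference. B cells with a UMI of Fcer2a, the low-affinity IgE receptor CD23 of follicular cells, had 378.4 CPM of Cd55 in B6.SLE123 and 486.6 in the control, a log2 ratio of -0.36 (-0.43, -0.29). B cells without Fcer2a but with at least 2 of 4 marginal zone markers had 97.5 and 90.7 CPM, a ratio of 0.10 (-0.16, 0.37). The remaining B cells had 233.1 and 404.3 CPM, a ratio of -0.79 (-0.85, -0.74). Detected Fcer2a itself was less common in the B6.SLE123 library, in 2657 of 12864 B cells against 5351 of 13189, so the subsets hold different shares of the B cells. The part of these shares in the overall ratio was not tested.

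Outside B cells Cd55 was sparse, at 44.7, 54.2 and 28.9 CPM in NK cells of control, Ang II and B6.SLE123 and at 2.09 to 4.10 CPM in Ly6c2 monocytes. Neutrophils went the other way from B cells, with 29, 106 and 83 UMIs or 23.6, 36.2 and 43.6 CPM, and log2 ratios of 0.89 (0.26, 1.55) for B6.SLE123 and 0.62 (0.013, 1.26) for Ang II. The former was 0.86 once hashtag C0303 was left out. With neutrophils taken from Leiden clusters in place of marker gates those ratios were 0.027 and -0.014. An antisense gene that overlaps Cd55 on the other strand, Gm16083, had 9 to 48 UMIs per library against 8235 to 16189 of Cd55. The close paralog Cd55b had 11 to 32, and how reads were assigned between Cd55 and this paralog is an uncertainty of these values.

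The Cd55 start window, chr1:130462695-130462994, holds the E box letters from 4 to 9, just past the start.

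Cd55: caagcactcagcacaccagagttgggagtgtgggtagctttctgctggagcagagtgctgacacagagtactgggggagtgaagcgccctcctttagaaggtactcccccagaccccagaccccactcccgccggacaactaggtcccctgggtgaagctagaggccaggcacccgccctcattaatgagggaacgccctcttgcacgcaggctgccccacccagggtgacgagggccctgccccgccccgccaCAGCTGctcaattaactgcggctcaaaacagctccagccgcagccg

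Cr1l was read at 47.3 to 125.6 CPM across the main classes and libraries. In B cells it was at 78.9, 75.5 and 72.4 CPM in control, Ang II and B6.SLE123, in NK cells at 107.1, 104.6 and 125.6, in Ly6c2 monocytes at 66.9, 65.6 and 47.3 and in nonclassical monocytes at 90.6, 118.1 and 69.2. B cell populations ran from 74.4 through 79.0 to 85.3 CPM in the control, from 72.9 through 75.7 to 77.6 in Ang II and from 65.5 through 72.7 to 80.0 in B6.SLE123. The B cell log2 ratio was -0.13 (-0.21, -0.039) for B6.SLE123 and -0.065 (-0.15, 0.017) for Ang II. In neutrophils Cr1l was at 72.4, 53.3 and 49.4 CPM, with log2 ratios of -0.55 (-0.99, -0.12) and -0.44 (-0.83, -0.050) for B6.SLE123 and Ang II. Without hashtag C0303 the B6.SLE123 ratio was -0.64 in neutrophils, and in Ly6c2 monocytes it was -0.50 (-1.09, 0.076) with and -0.089 without that hashtag. The Ang II value in neutrophils was 0.015 when the gene limits of the cell filter were read as limits on UMIs.

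**Figure D4:**
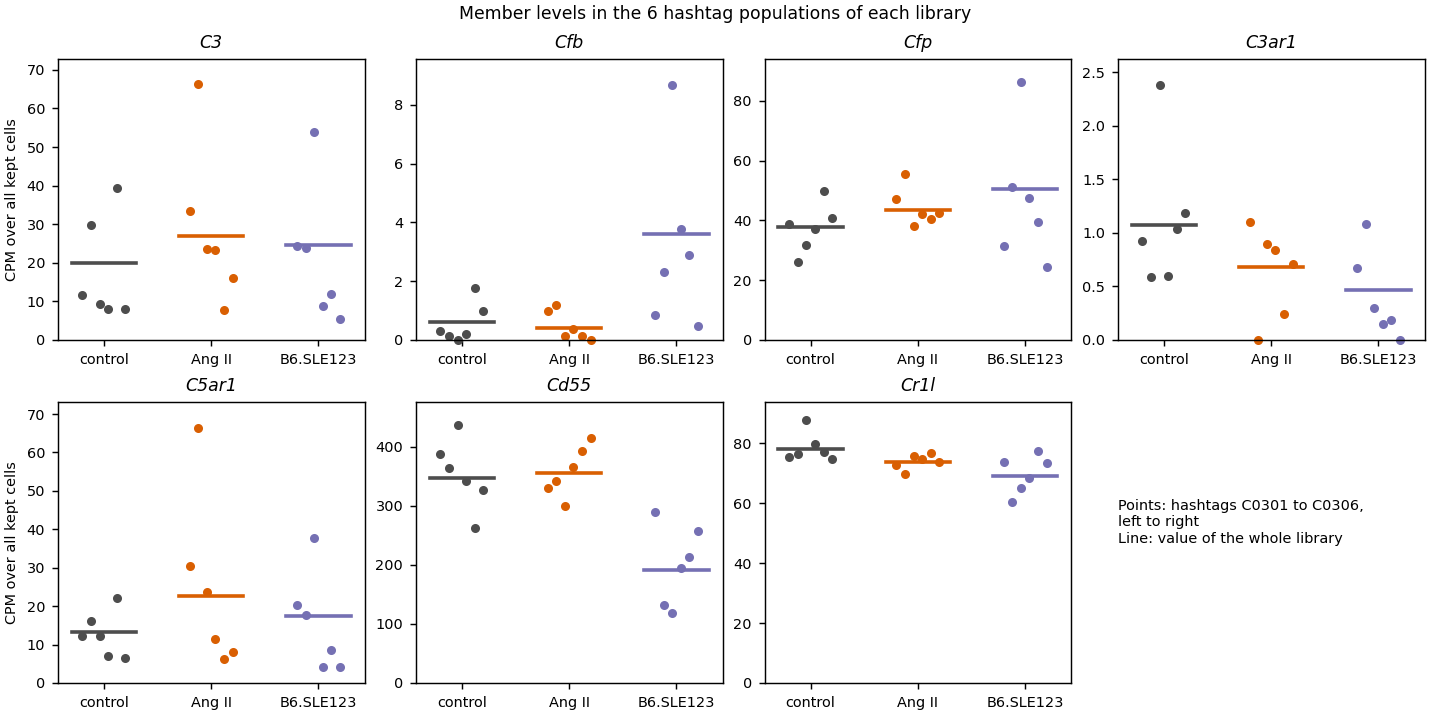
CPM over all kept cells (y axis) in the 6 hashtag populations of each library (points) and in the whole library (line) for the 7 genes with more than 1 UMI per library. The spread between populations of 1 library was wide for C3 and C5ar1 and narrow for Cr1l, and B6.SLE123 hashtag C0303 was the highest of its library for C3, Cfb, Cfp and C5ar1.

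Hashtag ranges of B6.SLE123 and control overlapped for each of the 7 genes that could be compared over all cells, where 18.4% of 12484 genes had ranges that did not. They also overlapped for each of the 2 to 5 genes that could be compared in a main class, against 21.0% of genes in B cells, 2.29% in NK cells, 1.39% in neutrophils, 1.74% in Ly6c2 monocytes and 1.63% in nonclassical monocytes. For Ang II and control the ranges of the 6 genes over all cells and of the 2 to 5 in a class overlapped too, against 8.39% of genes over all cells and 12.8%, 2.49%, 1.71%, 1.22% and 0.993% in those classes. In B cells, NK cells, neutrophils and Ly6c2 monocytes none of the 2 to 5 genes that could be compared in a class differed 2-fold between B6.SLE123 and control, where 7.35%, 1.52%, 11.3% and 5.22% of all genes did, and none did between Ang II and control, where 1.63% of genes did in B cells, 1.50% in NK cells, 4.04% in neutrophils, 1.66% in Ly6c2 and 2.12% in nonclassical monocytes.

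The genes whose level was most like that of each member were taken over 20 points, each a class with at least 50 cells in 1 library, which share libraries and depth. Basophils and red pulp macrophages, where C3ar1 and Cfp were highest, had fewer cells in every library and are not among these points. C3 followed Mgst1 (a marker used in the gates), Hacd4 and Hp, each with Pearson r = 0.99 of log2(CPM + 10). C5ar1 followed Lcn2, B230208H11Rik and Pram1, each at 0.97, Cfp followed Pirb at 0.93 and Clec12a and Gsn at 0.92, and Cfb followed Ms4a6d and Pla2g15 at 0.92. The levels of Cd55 were most like those of Cxcr5, the receptor that guides B cells to follicles, at 0.90, and Cr2 and B3gnt5 at 0.89. For Cr1l the closest genes were Rbl2 at 0.82 and Oxr1 and Irf2bpl at 0.81, and for C3ar1 Vcan at 0.84 and F13a1 and Fn1 at 0.83, the last 3 being gate markers and the level of C3ar1 reaching no more than 4.18 CPM in these classes. With 1 or no UMI per library, Serping1 is left out.

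The wider complement list held 37 further genes, of which 16 could be compared over all cells between B6.SLE123 and control. Fcnb, a myeloid ficolin of the lectin pathway, was 2-fold higher, with 8.73 CPM in the control and 18.0 in B6.SLE123, with a log2 ratio of 1.04 (0.85, 1.24), but the ratio was -0.082 without hashtag C0303 and 0.76 to 0.92 without control hashtag C0301, C0303, C0304 or C0306. Cd59a, an inhibitor of the membrane attack complex, was higher as well, at 1.45 and 7.97 CPM with a ratio of 2.46 (2.02, 2.92), and it kept that difference without C0303 (2.42). Cr2, which encodes the B cell receptors for C3 fragments, was lower, at 395.4 and 167.7 CPM with a ratio of -1.24 (-1.28, -1.20) that was -0.84 with the gene limits read as UMIs, as was C5ar2, the other C5a receptor, at 2.22 and 0.788 CPM with a ratio of -1.49 (-2.12, -0.89). The median log2 ratio of the 16 genes was 0.22. Between Ang II and control 17 of the 37 could be compared and only Clu, a soluble inhibitor of the terminal complex, was 2-fold different, at 1.04 CPM in the control and 0.418 in Ang II, a ratio of -1.31 (-2.20, -0.46), which was -0.94 without control hashtag C0306.

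**Figure D5:**
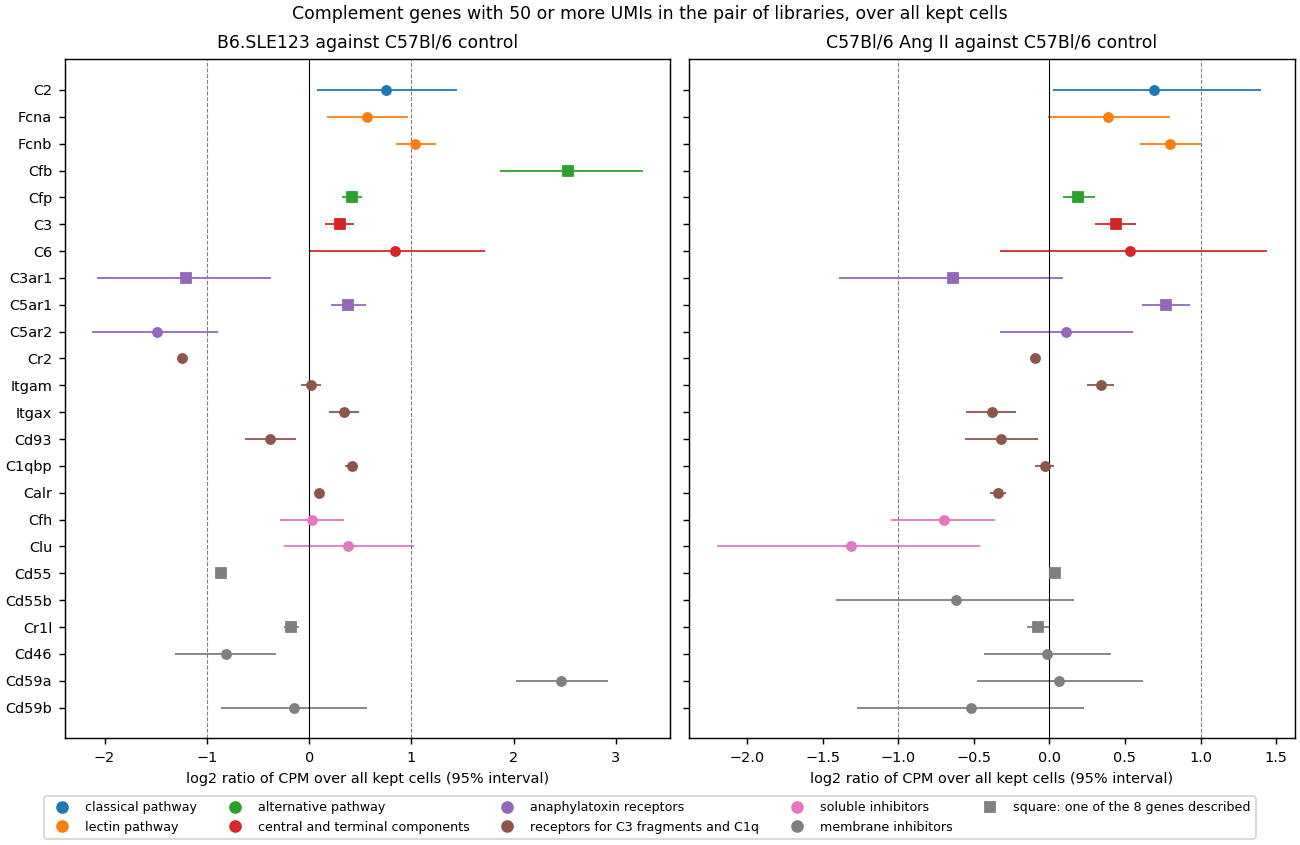
Log2 ratio of CPM over all kept cells (x axis) of B6.SLE123 (left) and Ang II (right) against control for the complement genes with 50 UMIs or more, coloured by role, with exact 95% intervals, dashed lines at 2-fold and squares for the genes described above. Cfb and Cd59a lay furthest to the right and C5ar2 furthest to the left in B6.SLE123, and Clu was the one gene beyond 2-fold in Ang II.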

How the data were processed

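The deposited files are count matrices of UMIs per gene and barcode that the authors made with Cell Ranger (6.0.0 in the file headers) on mm10, read here as deposited for 3 libraries. Barcodes with over 200 and under 3500 detected genes and under 15% mitochondrial UMIs were kept, and those positive for several hashtags (11.4% to 18.0%) were removed by an Otsu threshold per hashtag and library. A cell went to the class with the most of its 8 markers, at least 3 being needed; ties and cells with 3 markers of another lineage were left out. Counts were summed per library, hashtag and class, scaled to CPM of gene UMIs, and given with exact Poisson intervals. Log2 ratios carry exact conditional binomial intervals. Their coverage was checked only on simulated Poisson counts of genes with at least 50 UMIs, without spread between cells or hashtags. Such counts follow the model of the intervals, so the check bears on counting error only. A gene counted as different at 2-fold or more with at least 50 UMIs over both libraries. That minimum can be met through the library where a gene is high. Classes needed 50 cells in each library, or 20 for rare ones. Python 3.11.15, scipy 1.17.1, leidenalg 0.10.2 and edgeR 4.0.16 (TMM factors only) were used. Named were all 8 members, list genes with at least 50 UMIs in a library, the 3 genes most like each member (1 of them is not reported here) and class markers, others being marked as chosen after their values were seen. Members and gene lists were chosen with earlier results of these data known. Alternatives were other cell filters, gates, Leiden classes, scalings, hashtag calls and leaving out each hashtag. Without replicate libraries, precision covers counting error only.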

Additional observations from a re-analysis of the deposited data

Results flagged for a closer look

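In the comparison of B6.SLE123 with control, 3 genes had intervals above 0 in a main cell class and below 0 in another main class. The difference between classes was not tested in any of them. C3 had a log2 ratio of 0.52 in neutrophils and of -0.26 in Ly6c2 monocytes, the latter 0.020 with the gene limits of the cell filter read as UMIs. Cfp had 0.59 in B cells and -0.42 in neutrophils, which became 0.19 and -0.050 without B6.SLE123 hashtag C0303. Cd55 had -0.72 in B cells and 0.89 in neutrophils, the latter 0.027 in Leiden clusters. With rarer classes counted, C5ar1 had 1.03 and 2.40 in nonclassical and Ly6c2 monocytes and -3.93 in basophils. The basophil value came from 15 control UMIs and 1 of B6.SLE123. The limits of these C5ar1 ratios are given above, and their difference was not tested either.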

How the results depend on the processing

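No paired analysis was possible because each group was 1 library. The settings run gave the values below as log2 ratios against control, and the cause of each change was not tested. With the limits of 200 and 3500 genes read as UMIs, B6.SLE123 over all cells gave 0.55 for C3, 4.03 for Cfb, 0.074 for C5ar1 and -0.54 for Cd55, with 1 gene in place of 2 past 2-fold, C3ar1 being the one lost. In Ly6c2 monocytes it gave 0.020 for C3, 0.65 for Cfb, -0.85 for Cfp and 0.38 for C5ar1. In B cells it gave -0.47 for Cd55. The same limits in Ang II gave over all cells -0.047 for C3, -0.082 for Cfp, 0.58 for C5ar1, 0.25 for Cd55 and -0.002 for Cr1l, and in classes -2.04 for Cfp in Ly6c2 monocytes, 0.40 for C5ar1, 0.015 for Cr1l and 0.007 for C5ar2 in neutrophils and 0.24 for Cd55 in B cells. TMM scaling gave -0.78 for Cd55 and -0.091 for Cr1l over all B6.SLE123 cells and 0.023 for Cd55 in Ang II B cells. Median-of-ratios scaling gave -0.78 and -0.095, -0.67 for Cd55 in B6.SLE123 B cells and 0.020 in Ang II B cells. Leiden classes gave Cfp in Ly6c2 monocytes as 0.39 for B6.SLE123 and 0.59 for Ang II, and Cd55 in Ang II neutrophils as -0.014. With barcodes of several hashtags kept, 1 gene was past 2-fold over all B6.SLE123 cells, C3ar1 again being lost. Counted in the class where each gene was highest among the 5 main classes of the control library, 1 in place of 0 was past 2-fold with those barcodes kept, with Leiden classes or with no minimum of UMIs.

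Leaving out each hashtag population in turn gave, for B6.SLE123 over all cells, -0.35 (without B6.SLE123 C0303) to 0.70 for C3, 1.73 to 3.43 for Cfb, 0.068 to 0.54 for Cfp, -0.24 (without the same C0303) to 0.64 for C5ar1, -0.99 to -0.71 for Cd55, -0.082 to 2.14 for Fcnb and 1 to 2 genes past 2-fold, C3ar1 being lost without B6.SLE123 C0306 or control C0303. In classes it gave -0.27 to 0.065 for C5ar1 in neutrophils and -0.84 to -0.63 for Cd55 in B cells. For Ang II the ranges over all cells were 0.077 to 0.84 for C3, 0.085 to 0.31 for Cfp, 0.28 to 1.02 for C5ar1, -0.046 to 0.085 for Cd55, which was -0.007 without Ang II C0306 and -0.046 without control C0305, and 0 to 1 genes past 2-fold. In classes they were -1.73 to 0.32 for Cfb in Ly6c2 monocytes, -0.10 to 0.20 for C5ar1 in neutrophils, 0.019 to 0.11 for Cd55 in B cells and -0.14 to 0.042 for Cr2 in B cells, the last without control C0305.

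Gates of 2 or 4 markers and leaving out barcodes without a hashtag left every value within its interval and direction. With the C1q moDC class left out, an alternative chosen after seeing the data as were the B cell subsets and the limit of 20 cells, Cfb kept its direction. Depth limited Serping1, and C3ar1, Cfb and C5ar1 in monocytes and basophils rested on few UMIs.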

Other observations

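Within B cells other complement receptors and inhibitors of the list differed between B6.SLE123 and control, where 10 of them besides the members could be compared. Itgam and Itgax, the alpha chains of the integrins that bind inactivated C3b, were at 6.61 against 1.63 CPM (log2 ratio 2.02, 1.54 to 2.52) and at 3.85 against 0.617 CPM (2.64, 1.90 to 3.47). Cd59a was at 9.07 against 1.60 CPM (2.51, 2.04 to 3.00). Cr2 was at 224.6 against 472.4 CPM (-1.07, -1.11 to -1.03) and Cd93, a marker of immature B cells, at 1.73 against 5.44 CPM (-1.65, -2.13 to -1.19). Of all genes compared in B cells, 7.35% differed 2-fold. Without B6.SLE123 hashtag C0303 the ratios were 1.49 for Itgam, 2.03 for Itgax, 2.43 for Cd59a, -0.97 for Cr2 and -2.05 for Cd93.

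Cr2 was lower in each B cell subset that was looked at after the data were seen. It was at 227.6 against 411.3 CPM in B cells with Fcer2a (-0.85, -0.94 to -0.77), at 392.1 against 1106.6 CPM in those with marginal zone markers (-1.50, -1.60 to -1.39) and at 202.7 against 416.6 CPM in the remaining B cells (-1.04, -1.10 to -0.98). In neutrophils C5ar2 was at 12.1 against 37.4 CPM in B6.SLE123 and control (-1.63, -2.42 to -0.88), and at -0.80 without hashtag C0303.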
